A study of Homo sapiens with 8 samples.

Results

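The mitotic genes described here are 40 genes whose products act in the G2 and M phases of the cell cycle, listed by the gene symbol of the array's annotation. Of these, 39 were measured, out of 18732 genes tested, and CDK1, the kinase that triggers entry into mitosis, was not analysed here. The list was not built from measured values. Expression was profiled on 8 exon arrays. The cells were of the human embryonal carcinoma line NTera2/D1, whose undifferentiated cells take on neural features under retinoic acid (RA). The 4 groups, of 2 arrays each, were siRNF20 cells given 10 µM RA for 72 h, siLacZ cells given the same RA, siRNF20 cells given DMSO, the solvent, and siLacZ cells given DMSO. RNF20 is a ubiquitin ligase that places a single ubiquitin on histone H2B, and siLacZ is a control against a bacterial gene that human cells lack. All 4 groups were the same line, 1 array of each carries the number GF117 and the other GF120, and the labels do not say what these numbers stand for. The labels call the arrays biological duplicates. The comparisons ask whether RA, the depletion of RNF20 or their combination changed the RNA of the mitotic machinery.

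Mitosis is driven by cyclin-dependent kinase bound to cyclin B, which phosphatases of the CDC25 family switch on. Polo-like and Aurora kinases then build the spindle, motor proteins move the chromosomes, and kinetochores attach them to microtubules. The spindle checkpoint holds the cell until every chromosome is attached, after which the anaphase-promoting complex destroys securin and cyclin B, the sister chromatids part and the cell divides. Many of these genes are transcribed in a wave late in the cycle, so their RNA in a bulk sample is higher when more of its cells are in G2 and M. In bulk RNA, fewer mitotic cells and less RNA in each such cell cannot be told apart.

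Values are log2 of the deposited intensity, and the value of a gene is the median over its array rows, each row being a group of probes within the gene. Each array's median row lay at 4.10 to 4.20 on this scale. RNF20, the targeted gene, had log2 intensities of 6.27 and 5.89 in siRNF20 RA arrays, against 8.10 in the GF120 siLacZ RA array, and 6.48 and 5.98 in siRNF20 DMSO arrays, against 8.24 and 8.10 in siLacZ DMSO arrays (GF117 first in each pair). All 4 siRNF20 arrays were below these 3 siLacZ arrays, and averaged over DMSO and RA RNF20 fell by 1.98 on the log2 scale (SE 0.19, limma adjusted p = 0.026). The GF117 siLacZ RA array stood apart from all others. RNF20 was 6.08 on it, but the median over all genes was low too, at 5.51, against 6.34 to 6.50 on the 7 others. What its low RNF20 value stands for was not tested. Across genes, Pearson's r between this array and each of the remaining arrays was 0.078 to 0.18. Between any pair of those 7 it was 0.91 to 0.97. The 39 mitotic genes had a median log2 intensity of 5.33 on it, against 8.64 to 9.29 on the 7 others, and only 32 of the 39 were above its median row. Results are therefore given for 7 arrays, with the GF120 array alone for siLacZ RA cells and its spread taken from the other groups; values with all 8 arrays follow where they differ.

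All 39 mitotic genes were above the median row in each of the 7 arrays. Rows at or below the median row mean of these arrays had been left out. That all 39 were above it was thus largely set by the filter. The label of the cells fitted their markers: in DMSO arrays 12 markers of undifferentiated cells had a median log2 intensity of 9.59 to 9.69. The median log2 intensity of the mitotic genes was 9.16 and 8.64 in the GF117 and GF120 siRNF20 RA arrays, against 9.05 in the GF120 siLacZ RA array. It was 9.29 and 8.87 in the GF117 and GF120 siRNF20 DMSO arrays, against 9.03 and 8.93 in those of siLacZ DMSO cells. The 4 groups overlapped, and the lowest value was that of the GF120 siRNF20 RA array. The SD within groups had a median of 0.23 over the mitotic genes, against 0.22 over all genes tested. A gene was called where its limma p, adjusted over all genes, was under 0.05. No change of a mitotic gene with siRNF20 passed the test in either treatment, and with RA only PTTG1 was called, in siLacZ cells, on an estimate that depends on 1 array row.

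**Figure D1:**
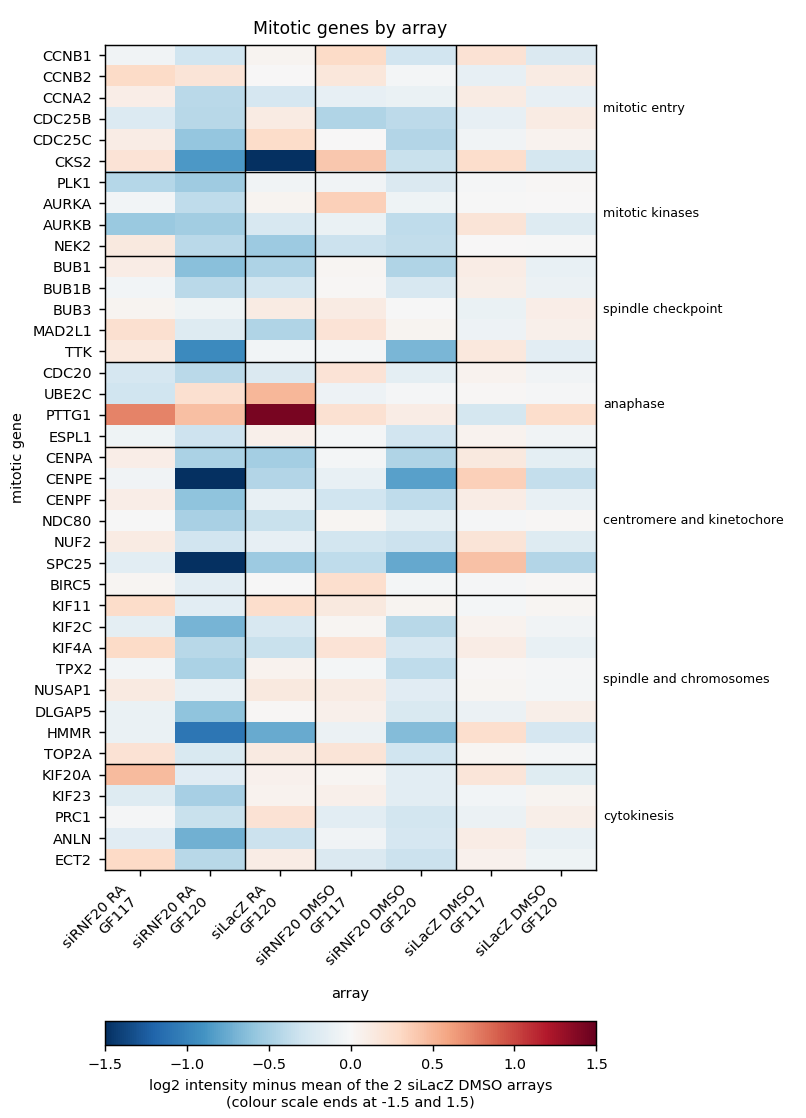
Log2 intensity of the 39 mitotic genes (rows, grouped by role) on 7 arrays (columns), as the difference from the mean of the 2 siLacZ DMSO arrays. PTTG1 in siLacZ RA cells, at 9.61, and CKS2 in the same array, at 7.50, carry the strongest colours beside CENPE and SPC25 in the GF120 siRNF20 RA array, at 5.17 and 5.81.

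The promoter of PTTG1 is shown because this gene carried the called change. Those of CKS2 and SPC25 are shown for the largest siRNF20 differences averaged over DMSO and RA, 0.63 and -0.50. Each window runs from 250 bases before the start of transcription to 50 bases after it, from RefSeq (build GRCh38.p14), 5′ to 3′ on the strand of the gene: chr5:160421605-160421904 on the plus strand for PTTG1 (the first of 2 windows listed), chr9:89310945-89311244 on the plus strand for CKS2 and chr2:168890381-168890680 on the minus strand for SPC25. Capitals mark 3 motifs on either strand: CCAAT, which reads as ATTGG on the opposite strand and holds the letters of the NF-Y box, with TTTGAA, which reads as TTCAAA on the opposite strand, and the palindrome TTTAAA, which hold letters of the cell cycle genes homology region.
PTTG1: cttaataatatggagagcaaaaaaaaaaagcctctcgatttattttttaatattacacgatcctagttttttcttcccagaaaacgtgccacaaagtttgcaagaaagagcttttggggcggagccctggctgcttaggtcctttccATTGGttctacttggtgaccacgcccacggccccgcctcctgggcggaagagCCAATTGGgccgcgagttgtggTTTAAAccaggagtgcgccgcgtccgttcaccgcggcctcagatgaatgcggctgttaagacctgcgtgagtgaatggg
CKS2: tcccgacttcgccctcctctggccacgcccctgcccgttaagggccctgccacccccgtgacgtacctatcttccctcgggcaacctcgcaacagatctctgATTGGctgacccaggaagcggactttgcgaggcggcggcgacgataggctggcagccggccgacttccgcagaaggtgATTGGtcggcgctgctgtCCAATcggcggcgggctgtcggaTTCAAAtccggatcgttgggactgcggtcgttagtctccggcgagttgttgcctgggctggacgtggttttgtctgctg
SPC25: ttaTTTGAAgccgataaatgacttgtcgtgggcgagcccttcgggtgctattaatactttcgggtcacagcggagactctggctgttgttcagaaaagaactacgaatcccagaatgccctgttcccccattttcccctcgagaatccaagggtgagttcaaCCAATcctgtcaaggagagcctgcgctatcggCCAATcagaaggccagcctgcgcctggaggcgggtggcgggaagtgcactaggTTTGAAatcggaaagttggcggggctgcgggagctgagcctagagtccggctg
In PTTG1 the letters TTTAAA began 29 bases before the start, in CKS2 TTCAAA began 29 bases before it, and in SPC25 TTTGAA began 3 bases before it. In PTTG1 a CCAAT and an ATTGG overlap. Of the measured mitotic genes 33 had a window in the RefSeq table, with 42 windows in all. TTTGAA, on either strand, was in 25 of the 42 windows (59.5%), against 15.2% of the 35116 windows of all genes in the table. Within 50 bases of the start it was in 50% of the mitotic windows, against 4.62% of all windows. TTTAAA was in 31.0% of the mitotic windows, against 12.2% of all, and CCAAT in 73.8%, against 34.6%. Near the start, TTTGAA or TTTAAA was in 26 of the 42 mitotic windows (61.9%), against 7.62% of all windows. These matches describe letters and were not tested as sites.

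In DMSO, the differences of the mitotic genes between siRNF20 and siLacZ cells were small, and none passed the test. None of the 39 was called, as was none of the 18732 genes (0%). RNF20 itself was not called in DMSO, at -1.94 (limma adjusted p = 0.24), nor in RA, at -2.02. The test thus missed a difference of that size in each treatment. In DMSO 1 mitotic gene and 519 of all genes had an unadjusted p under 0.05. The log2 difference was below 0 in 30 of 39 mitotic genes, against 52.0% of all genes, with a median of -0.11, against -0.01 over all genes. Without the GF120 siRNF20 DMSO array it was below 0 in 18 of 39, with a median over all genes of 0.03. The 95% interval lay within a 2-fold change either way in 35 of 39 mitotic genes, against 83.5% of all genes, so that for these 35 a larger change lay outside the interval.

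CDC25B, a phosphatase that starts the activation of CDK1, had log2 intensities of 7.52 and 7.57 in siRNF20 DMSO arrays, against 7.85 and 8.09 in siLacZ DMSO arrays. The groups did not overlap, and the difference of -0.42 (SE 0.18, 95% interval -0.83 to -0.01) had a limma adjusted p of 1.00. It was lower with siRNF20 in 22 of its 28 rows in GF117 and in 26 of 28 in GF120. SPC25, a subunit of the NDC80 complex that holds microtubules at the kinetochore, had 7.22 and 6.82 in siRNF20 DMSO arrays, against 8.04 and 7.15 in siLacZ DMSO arrays. The GF117 siRNF20 array was above the GF120 siLacZ array, and the difference was -0.57 (SE 0.47, adjusted p 1.00). CENPE, a kinetochore motor that carries chromosomes to the spindle equator, had 6.59 and 5.89 in siRNF20 DMSO arrays, against 7.05 and 6.35 in siLacZ DMSO arrays. These groups overlapped too, with a difference of -0.46 (SE 0.45, adjusted p 1.00). Without the GF117 siLacZ DMSO array SPC25 was at -0.13 and CENPE at -0.11, and without the GF120 siRNF20 DMSO array they were at -0.38 and -0.11. The highest differences were those of PTTG1 (0.17, SE 0.20), AURKA (0.15, SE 0.19) and MAD2L1 (0.12, SE 0.18), none past the test. That of PTTG1 was -0.27 as a mean over its rows, and that of MAD2L1 was -0.02. That of AURKA was -0.06 without the GF117 siRNF20 DMSO array. The 9 left-out rows that name AURKA with a pseudogene had medians of 9.50 and 9.27 in siRNF20 DMSO arrays, against 9.58 and 9.42 in siLacZ DMSO arrays.

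Without overlap between the DMSO arrays, siRNF20 was lower for 8 mitotic genes, against 15.6% of all genes, and higher for 1, against 14.6%. The 8 were CDC25B, PLK1, NEK2, CENPF, NUF2, TPX2, PRC1 and ECT2, and the 1 was KIF11. The share of lower genes, 20.5% of the 39, was near the background.

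In RA-treated cells no mitotic gene was called with siRNF20 either, against 2 of all genes (0.0107%), both higher. Unadjusted p was under 0.05 for 3 mitotic genes and for 1485 of all genes. The log2 difference was below 0 in 26 of 39 mitotic genes, against 50.9% of all, with a median of -0.14. The siLacZ array is of GF120. Without the GF117 siRNF20 RA array the count was 34 of 39, and the median over all genes was -0.05. Without the GF120 siRNF20 RA array the count was 15 of 39, and the median over all genes was 0.03. The 95% interval lay within a 2-fold change in 31 of 39, against 58.5% of all genes. With all 7 arrays and the GF number as a term in the fit, the difference was below 0 in 33 of 39 mitotic genes. The median over all genes was -0.04 in that fit. Shares of all genes below 0 were not counted in these settings.

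PTTG1, which encodes securin, the inhibitor of separase, had log2 intensities of 8.93 and 8.64 in siRNF20 RA arrays, against 9.61 in the siLacZ RA array. Both siRNF20 arrays were lower, and the difference was -0.82 (SE 0.25, adjusted p = 0.43). In the GF120 RA pair 5 of its 7 rows were lower with siRNF20 and 2 higher. CKS2, a small subunit of cyclin-dependent kinases, had 9.27 and 8.21 in siRNF20 RA arrays, against 7.50 in the siLacZ RA array. Both siRNF20 arrays were higher, by 1.24 on average (SE 0.43, adjusted p = 0.51), by 0.70 with the GF120 array alone and by 1.77 with the GF117 array alone. All 5 rows of CKS2 were higher with siRNF20 in the GF120 RA pair, by a median of 0.70. PLK1, a kinase of spindle assembly and mitotic exit, had 9.84 and 9.73 in siRNF20 RA arrays, against 10.22 in the siLacZ RA array, a difference of -0.43 (SE 0.15, adjusted p = 0.54). UBE2C, the ubiquitin-conjugating enzyme of the anaphase-promoting complex, differed by -0.52 (SE 0.25) and CDC25C, a phosphatase of mitotic entry, by -0.51 (SE 0.33). MAD2L1, a checkpoint protein, differed by 0.48 (SE 0.22) and NEK2, a centrosome kinase, by 0.42 (SE 0.25). None of these passed, with adjusted p of 0.63 to 0.74. The value of NEK2 was -0.03 as a mean over its rows, of which 15 of 22 were lower with siRNF20 in the GF120 RA pair. That of MAD2L1 ran between 0.07 and 0.69 over 16 alternatives without the array that stood apart. In the same pair 8 of its 13 rows were lower with siRNF20. Of 12 markers of undifferentiated cells 9 were above 0 in the same comparison, against 9195 of the 18732 genes tested. The other 3 were below 0, down to -0.50. The median of the 12 was 0.29, and none passed. NANOG had 7.19 and 7.14 in siRNF20 RA arrays, against 6.02 in the siLacZ RA array. The part of these markers in the differences of the mitotic genes was not tested. With all 8 arrays no mitotic gene was called, and the median difference, with the array that stood apart included, was 1.64.

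Averaged over DMSO and RA, 0 of 39 mitotic genes were called with siRNF20, against 1 of all genes (0.00534%), RNF20 itself. Unadjusted p was under 0.05 for 4 mitotic genes and 1533 of all genes. The 4 were CDC25B, with a log2 difference of -0.43 (SE 0.14, adjusted p = 0.51), PLK1, with -0.28 (SE 0.10, adjusted p = 0.53), PRC1, a microtubule bundler of the central spindle, with -0.31 (SE 0.13, adjusted p = 0.61), and CKS2, with 0.63 (SE 0.28, adjusted p = 0.61). The lowest difference was that of SPC25, at -0.50 (SE 0.37), next to CDC25B and CENPE, at -0.40 (SE 0.36). Leaving out 1 array moved SPC25 between -0.91 (without the GF117 siRNF20 RA array) and -0.094 (without the GF120 one) and CENPE between -0.77 and -0.055 under the same 2 omissions, so that the order of these genes rests on single arrays. MAD2L1, at 0.30 (SE 0.14), and CCNB2, a B-type cyclin, at 0.15 (SE 0.11), followed CKS2 at the high end. Over 15 alternatives without the array that stood apart MAD2L1 ran between 0.03 and 0.41 and CCNB2 between 0.02 and 0.22. The 95% interval lay within a 2-fold change in 36 of 39 mitotic genes, against 91.6% of all genes.

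The number of mitotic genes lower with siRNF20 was not alike in GF117 and GF120. Within GF117, in DMSO, siRNF20 was below siLacZ in 22 of 39 mitotic genes, against 50.1% of all genes, with a median difference of -0.05. Within GF120, in DMSO, it was below in 35 of 39, against 53.5%, with a median of -0.19. Within GF120, in RA, it was below in 34 of 39, against 54.6%, with a median of -0.34. The GF117 pair in RA holds the array that stood apart, and there siRNF20 was above siLacZ in all 39, by a median of 3.83, against a median of 1.03 over all genes. These counts have no test, since each pair is 1 array against 1, and the difference between the GF numbers was not tested.

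**Figure D2:**
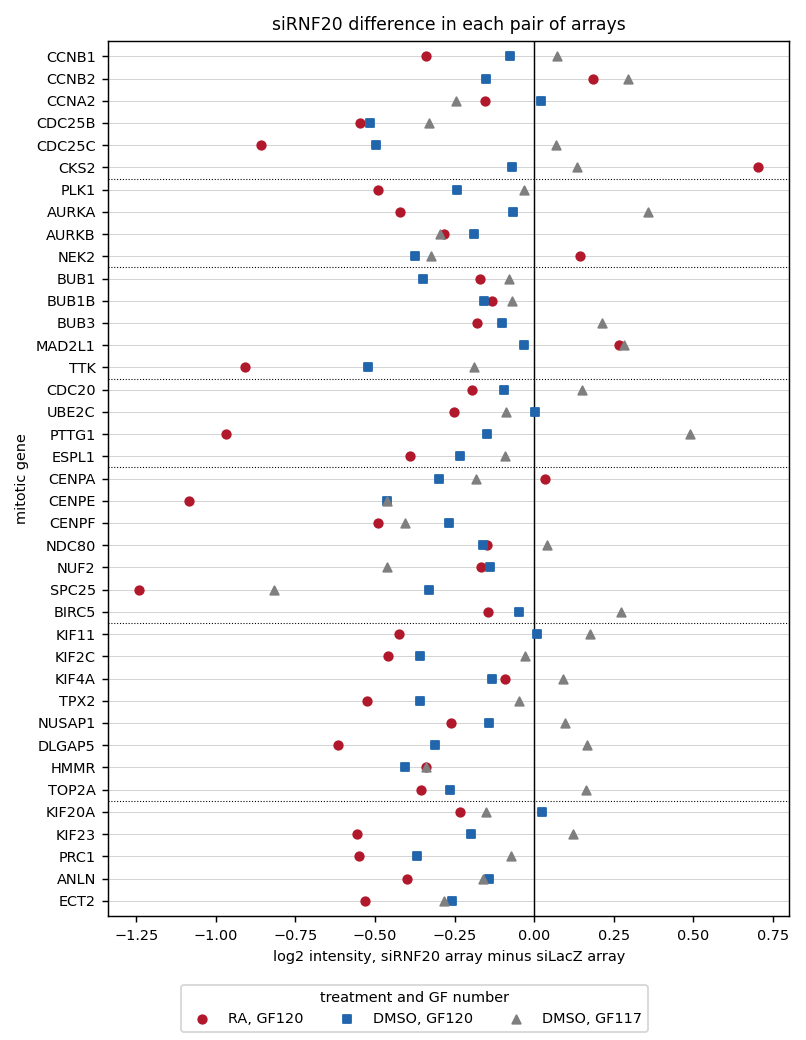
Difference in log2 intensity between the siRNF20 and the siLacZ array of the same treatment and GF number, for each mitotic gene (vertical axis, by role). The GF120 pairs lie below 0 for 34 of 39 genes in RA and 35 of 39 in DMSO, and the GF117 DMSO pair lies on both sides, with 22 of 39 below 0.

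In both GF120 pairs 30 of 39 mitotic genes were lower with siRNF20, against 33.7% of all genes. In all 3 pairs 17 of 39 were lower, against 20.5% of all genes, and 0 were higher, against 15.0%. The 17 were AURKB, BUB1, BUB1B, CDC25B, CENPE, CENPF, ECT2, ESPL1, HMMR, KIF2C, NUF2, PLK1, PRC1, SPC25, TPX2, TTK and ANLN. SPC25 differed by -1.24 in GF120 RA, -0.33 in GF120 DMSO and -0.82 in GF117 DMSO. CENPE differed by -1.08, -0.46 and -0.46 in the same pairs, and 52, 47 and 50 of its 58 rows were lower with siRNF20. TTK, the checkpoint kinase also called MPS1, differed by -0.91, -0.52 and -0.19. CDC25B differed by -0.55, -0.52 and -0.33. These 4 genes were taken from the 17, so that being lower in each of the 3 pairs is part of their choice. In the GF117 RA pair, with the array that stood apart, they were higher, CDC25B by 1.01 and TTK by 5.33. The rows of SPC25 were split in GF120 DMSO, with 4 lower, 3 higher and a median of -0.01. Group values overlapped for SPC25, CENPE and TTK in DMSO.

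The GF number itself moved with the level of the mitotic genes. The GF120 array was below the GF117 array in all 3 groups that have both for 22 of 39 mitotic genes, against 30.1% of all genes, and above it in all 3 for 0 of 39, against 15.3%. The median difference, GF120 minus GF117, was -0.43 in siRNF20 RA cells, -0.26 in siRNF20 DMSO cells and -0.10 in siLacZ DMSO cells, against -0.08, -0.07 and -0.06 over all genes. It was thus widest in the siRNF20 RA group, where 37 of 39 were lower in GF120. SPC25 had 7.43 in the GF117 and 5.81 in the GF120 siRNF20 RA array, and CENPE had 6.65 and 5.17. With the GF number as a term in the fit, the siRNF20 difference in DMSO was below 0 in 30 of 39 mitotic genes, as without it. In RA it was below 0 in 33 of 39 with the term, against 26 without it. The median over all genes in the fit with the term was -0.01 in DMSO and -0.04 in RA. Beyond this fit, the part of the GF number in the siRNF20 differences was not tested.

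In siRNF20 cells no mitotic gene passed the test with RA, while genes that respond to retinoids rose. None of the 39 was called, against 734 of all genes (3.92%; 1.79% higher and 2.13% lower), and 2 mitotic genes had an unadjusted p under 0.05, against 2868 of all genes. The log2 difference, RA minus DMSO, had a median of -0.05 over the mitotic genes, against -0.03 over all, and lay between -0.40 and 0.43. It was below 0 in 26 of 39, against 53.6% of all genes. By pair it was below 0 in 33 of 39 within GF120 (median -0.16), against 54.3% of all genes. Within GF117 it was below 0 in 18 of 39 (median 0.02), against 53.3% of all genes. Without the GF117 RA array the count was 34, without the GF120 RA array it was 11, and without the GF117 DMSO array 15. The medians over all genes were -0.06, -0.01 and -0.01 in these settings, where shares of all genes below 0 were not counted. The 95% interval lay within a 2-fold change in 36 of 39, against 72.6% of all genes. In the same arrays 10 of 11 retinoid response genes rose, among them RARB, a retinoic acid receptor, by 6.46 (SE 0.35, adjusted p = 3.1e-05), and 8 of 12 markers of undifferentiated cells fell. NANOG, a pluripotency factor, fell by 2.76 (SE 0.16, adjusted p = 3.4e-05).

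CDC20, the activator of the anaphase-promoting complex, had log2 intensities of 10.07 and 9.92 in siRNF20 RA arrays, against 10.53 and 10.18 in siRNF20 DMSO arrays. The groups did not overlap, and the difference of -0.36 (SE 0.15) had an adjusted p of 0.27. PLK1 had 9.84 and 9.73 with RA, against 10.21 and 10.05 with DMSO, again without overlap, and a difference of -0.35 (SE 0.13, adjusted p = 0.21). AURKB, the Aurora kinase of the chromosomal passenger complex, had 9.02 and 9.06 with RA, against 9.48 and 9.20 with DMSO, a difference of -0.30 (SE 0.17, adjusted p = 0.49). AURKB was chosen for mention after its values were seen: its difference passed as a mean over rows (-0.69, adjusted p = 0.029) and with each row centred before the median (-0.61, adjusted p = 0.046), and over 16 alternatives on these arrays its adjusted p ran between 0.0031 and 0.93. In its 13 rows RA was lower in 12 within GF117 and in 11 within GF120.

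SPC25, at -0.40 (SE 0.47), and CKS2, at -0.37 (SE 0.35), had the lowest differences beside CDC20 in siRNF20 cells. PTTG1, at 0.43 (SE 0.20), NEK2, at 0.22 (SE 0.20), and KIF20A, a kinesin of cytokinesis, at 0.22 (SE 0.22), had the highest. Of these, 4 changed sign when 1 array was left out: without the GF120 RA array CKS2 was at 0.17 and SPC25 at 0.41, and without the GF117 RA array NEK2 was at -0.050 and KIF20A at -0.10. RA and DMSO arrays did not overlap, with RA lower, for AURKB, CDC20, KIF23 and PLK1, against 24.8% of all genes, and with RA higher for CCNB2 and PTTG1, against 18.1%.

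In siLacZ cells PTTG1 was the 1 mitotic gene called with RA, of 39, against 733 of all genes (3.91%); of all genes 1.88% were higher and 2.03% lower. Unadjusted p was under 0.05 for 2 mitotic genes and 3063 of all genes. PTTG1 had a log2 intensity of 9.61 in the siLacZ RA array, against 7.93 and 8.45 in siLacZ DMSO arrays. It rose by 1.42 on the log2 scale (SE 0.25, 95% interval 0.86 to 1.99, limma adjusted p = 0.013), a 2.68-fold difference. The same row, the second of 7, gave this median in all 3 arrays. Within GF120, RA was higher in 5 of its 7 rows and lower in 2, with a median of 0.49 over rows and a range of -0.63 to 1.16. As a mean over rows the difference was 0.31 (adjusted p = 0.41), with rows centred 0.38 (adjusted p = 0.27), without the GF117 siLacZ DMSO array 1.16 (adjusted p = 0.065) and with all 8 arrays 0.33 (adjusted p = 0.81). With the array that stood apart in place of the GF120 siLacZ RA array it was -0.77 (adjusted p = 0.018). It was called, in either direction, in 12 of 18 alternatives, whose adjusted p ran between 0.0025 and 0.81. A further 2 rows name PTTG1 together with its close relative PTTG2 and were left out: their median was 9.05 in the siLacZ RA array, against 9.88 and 9.64 in siLacZ DMSO arrays, so that they were lower with RA.

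CKS2 had a log2 intensity of 7.50 in the siLacZ RA array, against 9.33 and 8.81 in siLacZ DMSO arrays. The difference of -1.57 (SE 0.43, 95% interval -2.54 to -0.60) was the lowest of the mitotic genes and missed the threshold, with an adjusted p of 0.090. All 5 rows of CKS2 were lower with RA within GF120, with differences of -2.24 to -1.13. The difference passed as a mean over rows (-1.56, adjusted p = 0.048), with rows centred (-1.41, adjusted p = 0.034) and with the spread taken from the siLacZ groups alone (-1.57, adjusted p = 0.0075); without the GF117 siLacZ DMSO array it was -1.31 (adjusted p = 0.33), and it was called in 7 of 16 alternatives without the array that stood apart, whose adjusted p ran between 0.0013 and 0.33. With all 8 arrays it was -2.71 (adjusted p = 0.44). In siRNF20 cells CKS2 was lower with RA in 5 of 5 rows within GF120 and in 3 of 5 within GF117.

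**Figure D3:**
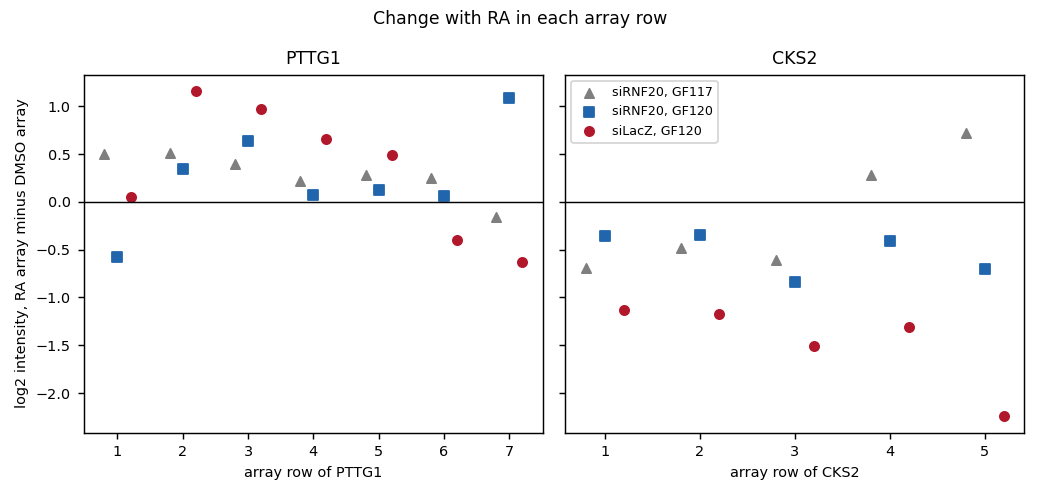
Difference in log2 intensity between the RA and the DMSO array of the same cells and GF number, for each array row of PTTG1 (left, 7 rows) and CKS2 (right, 5 rows). In siLacZ cells the rows of PTTG1 lie between -0.63 and 1.16, on both sides of 0, and the 5 rows of CKS2 all lie below 0.

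The other mitotic genes differed less with RA in siLacZ cells. HMMR, a spindle protein that binds hyaluronan, had 7.77 in the siLacZ RA array, against 8.77 and 8.27 in siLacZ DMSO arrays, a difference of -0.75 (SE 0.40, adjusted p = 0.41). SPC25 differed by -0.55 (SE 0.58), UBE2C by 0.49 (SE 0.25) and CDC25C by 0.27 (SE 0.33), with adjusted p of 0.38 to 0.77. Without the GF117 siLacZ DMSO array SPC25 was at -0.11 and HMMR at -0.51. UBE2C was -0.01 as a mean over its 17 rows. The median over the 39 was -0.04, against -0.05 over all genes, and 21 of 39 were below 0, against 55.3% of all. The 95% interval lay within a 2-fold change in 28 of 39, against 51.3% of all genes; the group holds 1 array, and intervals were wider here. Of the retinoid response genes 10 of 11 rose and of the undifferentiated markers 7 of 12 fell in the same cells, and NANOG fell by 3.82 (SE 0.19, adjusted p = 4.4e-05).

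**Figure D4:**
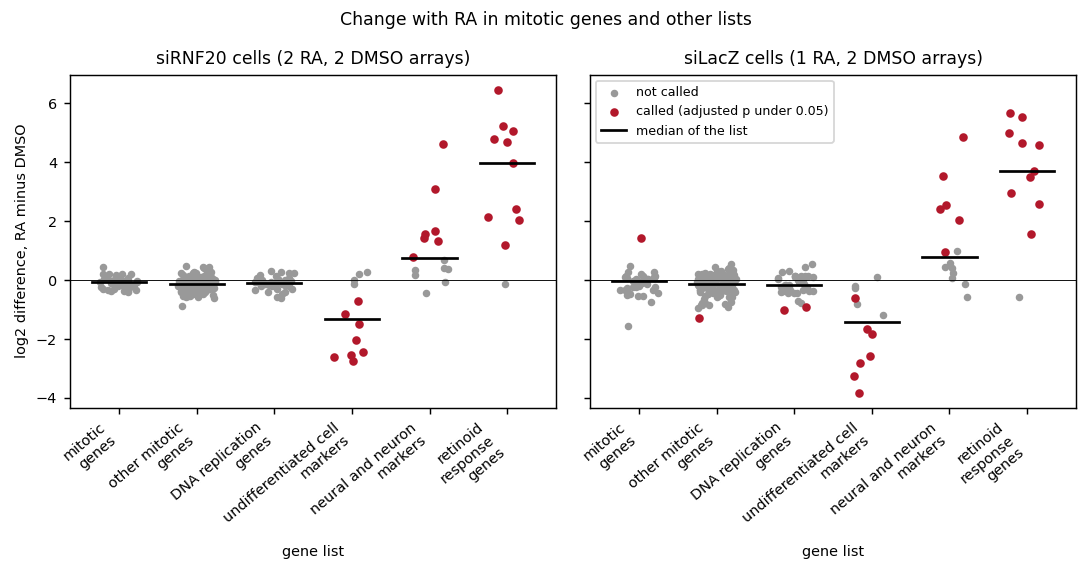
Log2 difference, RA minus DMSO, of each gene of 6 lists in siRNF20 cells (left) and siLacZ cells (right); points are genes, red where the limma adjusted p was under 0.05, and bars are the medians of the lists. The mitotic genes centre at -0.05 and -0.04, while the retinoid response genes centre at 3.98 and 3.72.

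The RA response of siRNF20 cells less that of siLacZ cells was called for 0 of 39 mitotic genes and 0 of all genes (0%), with unadjusted p under 0.05 for 2 and 737. CKS2 had the highest value, 1.20 (SE 0.56), followed by NEK2 at 0.76 (SE 0.32) and CENPA, the histone variant of centromeres, at 0.56 (SE 0.37). PTTG1 had the lowest, -0.99 (SE 0.32), followed by UBE2C at -0.48 (SE 0.32) and AURKA at -0.39 (SE 0.30). Each had an adjusted p of 1.00. The 95% interval lay within a 2-fold difference in 25 of 39 mitotic genes, against 35.3% of all genes, so that for 14 a larger difference was not bounded. The mitotic genes had a median of 0.00, and 19 of 39 were below 0, against 49.4% of all genes. That count was 31 without the GF117 siRNF20 RA array and 12 without the GF120 one, or without the GF117 siRNF20 DMSO array. The medians over all genes were -0.05, 0.05 and 0.03 in these settings.

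By role, the genes of mitotic entry were CCNB1 and CCNB2, which encode B-type cyclins, CCNA2, which encodes cyclin A, the phosphatases CDC25B and CDC25C, and CKS2. CCNB1 ranged over the 7 arrays between 10.27 and 10.86, CCNB2 between 9.76 and 10.18, CCNA2 between 9.20 and 9.73 and CDC25C between 6.29 and 7.15. The cyclins varied by 0.42 to 0.58, and CKS2 by 1.97. With siRNF20 CCNB1 differed by -0.34 in GF120 RA, by -0.08 in GF120 DMSO and by 0.07 in GF117 DMSO, and CCNB2 by 0.18, -0.15 and 0.30. Cyclin RNA thus had no common direction over the pairs.

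Of the mitotic kinases PLK1 and AURKB were lower with siRNF20 in each of the 3 pairs, AURKB by -0.28 in GF120 RA, -0.19 in GF120 DMSO and -0.30 in GF117 DMSO. AURKA, the spindle pole kinase, differed by -0.42, -0.07 and 0.36 in these pairs, and NEK2 by 0.15, -0.37 and -0.32. The range over the arrays was 8.55 to 9.29 for AURKA and 7.81 to 8.50 for NEK2. A further 9 rows name AURKA together with the pseudogene AURKAPS1 and were left out.

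The spindle checkpoint genes were BUB1, BUB1B, BUB3, MAD2L1 and TTK. BUB3, a scaffold of the checkpoint, varied least of them, between 9.33 and 9.54, and TTK most, between 7.17 and 8.28. BUB1 ranged between 8.96 and 9.70, BUB1B between 7.77 and 8.26 and MAD2L1 between 8.65 and 9.34. With siRNF20 BUB1, a checkpoint kinase, differed by -0.17 in GF120 RA, -0.35 in GF120 DMSO and -0.08 in GF117 DMSO. BUB1B, its relative in the checkpoint complex, differed by -0.13, -0.16 and -0.07. MAD2L1 went the other way in 2 of the 3 pairs, by 0.27 in GF120 RA and 0.28 in GF117 DMSO. The median of the differences in its 13 single rows was -0.12 in GF120 RA.

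The genes of anaphase were CDC20, UBE2C, PTTG1 and ESPL1, which encodes separase, the protease that cuts cohesin. UBE2C ranged between 7.69 and 8.48. ESPL1 ranged between 7.47 and 7.85 and was lower with siRNF20 in each pair, by -0.39 in GF120 RA, -0.23 in GF120 DMSO and -0.09 in GF117 DMSO. In RA all 4 genes were lower with siRNF20 by their group means, by a median of -0.39, and none passed.

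The genes of centromere and kinetochore were CENPA, CENPE, CENPF, NDC80, NUF2, SPC25 and BIRC5. NDC80, NUF2 and SPC25 are subunits of 1 complex, and did not vary alike: NDC80 ranged between 7.39 and 7.90, NUF2 between 8.05 and 8.57 and SPC25 between 5.81 and 8.04. CENPF, a large protein of the outer kinetochore, differed with siRNF20 by -0.49 in GF120 RA, -0.27 in GF120 DMSO and -0.41 in GF117 DMSO. BIRC5, which encodes survivin of the chromosomal passenger complex, differed by -0.15, -0.05 and 0.27, and ranged between 8.44 and 8.84. CENPA ranged between 8.06 and 8.71 and CENPF between 9.03 and 9.74. With RA in siLacZ cells the fitted differences of the 7 had a median of -0.34, and none passed. Within GF120 alone 6 of the 7 were below 0, with a median of -0.09 and NUF2 at 0.07.

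The genes of spindle and chromosomes were the kinesins KIF11, which pushes the spindle poles apart, KIF2C, which takes microtubules apart, and KIF4A, which acts on chromosome arms, with TPX2, the activator of Aurora A, NUSAP1 and DLGAP5, which bind spindle microtubules, HMMR, and TOP2A, the topoisomerase that untangles DNA. KIF2C differed with siRNF20 by -0.46 in GF120 RA, -0.36 in GF120 DMSO and -0.03 in GF117 DMSO, and TPX2 by -0.53, -0.36 and -0.05. DLGAP5 differed by -0.62, -0.31 and 0.17, and KIF11 by -0.43, 0.01 and 0.18. HMMR differed by -0.34, -0.41 and -0.34. All 8 genes were lower in GF120 RA, 7 of 8 in GF120 DMSO and 3 of 8 in GF117 DMSO. NUSAP1 ranged between 8.92 and 9.23, TOP2A between 9.60 and 10.11 and KIF4A between 8.45 and 9.16. KIF11 ranged between 7.98 and 8.42, KIF2C between 8.87 and 9.62, TPX2 between 8.87 and 9.39 and DLGAP5 between 8.73 and 9.41. The spread of HMMR was wider, between 7.43 and 8.77. A further 28 rows name KIF4A together with KIF4B and were left out.

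The genes of cytokinesis were KIF20A, KIF23, PRC1, ANLN, which encodes the ring protein anillin, and ECT2, the exchange factor that activates RhoA at the cell equator. ECT2 differed with siRNF20 by -0.53 in GF120 RA, -0.26 in GF120 DMSO and -0.28 in GF117 DMSO, and ANLN by -0.40, -0.14 and -0.16. PRC1 differed by -0.55, -0.37 and -0.07, and KIF23, a kinesin of the central spindle, by -0.56, -0.20 and 0.12. KIF20A ranged between 9.10 and 9.76, KIF23 between 8.97 and 9.55, PRC1 between 8.50 and 9.05, ANLN between 8.82 and 9.65 and ECT2 between 9.10 and 9.82. By group means in DMSO the 5 were below 0 with siRNF20, by a median of -0.15, and none passed; within each GF number 4 of 5 were below 0.

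Beside the listed genes stood a longer list of other mitotic genes, of which 114 were measured. None was called with siRNF20 in DMSO, in RA or averaged. Within the pairs siRNF20 was lower for 62 of 114 in GF117 DMSO, 92 in GF120 DMSO and 89 in GF120 RA. The shares of all genes were 50.1%, 53.5% and 54.6%. In all 3 pairs 45 of 114 were lower, against 20.5% of all genes, and 5 higher, against 15.0%. With RA the 1 gene called of this list was CDKN3, a phosphatase that acts on CDK2, which fell in siLacZ cells by 1.29 on the log2 scale (SE 0.24, adjusted p = 0.019). It had 6.71 in the siLacZ RA array, against 7.95 and 8.05 in siLacZ DMSO arrays.

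DNA replication genes, which act in S phase, of which 39 of 40 were measured, were set beside them. None was called with siRNF20. Within the pairs siRNF20 was lower for 14 of 39 in GF117 DMSO, 18 in GF120 DMSO and 19 in GF120 RA. The shares of all genes were 50.1%, 53.5% and 54.6%. In all 3 pairs 3 replication genes were lower, against 20.5% of all genes, and 7 were higher, against 15.0%. Of the 39 mitotic genes 17 were lower in all 3 pairs and 0 higher. The difference between the lists was not tested. With RA 28 of the 39 replication genes were below 0 in siRNF20 cells, against 53.6% of all genes. In siLacZ cells 24 were, against 55.3%. The RA response of siRNF20 cells less that of siLacZ cells was called for 0 replication genes and 0 of all genes. With RA in siLacZ cells PCNA, the sliding clamp of DNA polymerase, fell by 1.01 (SE 0.23, adjusted p = 0.040) and RFC4, a subunit of its loader, by 0.92 (SE 0.19, adjusted p = 0.030), and none of the list was called in siRNF20 cells.

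Markers of other cells moved with RA in the same arrays. Of 14 neural and neuron markers 7 rose in siRNF20 cells and 6 in siLacZ cells, ROBO2, an axon guidance receptor, by 4.62 (SE 0.29, adjusted p = 5.0e-05) and 4.85 (SE 0.36, adjusted p = 0.00015). The median of this list was 7.93 and 7.57 in siRNF20 RA arrays, against 6.18 and 6.24 in siRNF20 DMSO arrays, and 7.70 in the siLacZ RA array, against 6.16 and 6.16 in siLacZ DMSO arrays. Of 8 fibroblast and muscle markers ACTA2, by 1.71, and COL1A1, by 1.30, rose with RA in siLacZ cells, and none in siRNF20 cells. In siLacZ cells 5 of the 8 were below 0, TAGLN lowest at -0.73 (adjusted p = 0.27), and the median was -0.01. The part of these shifts in the values of the mitotic genes was not tested.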

How the data were processed

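The deposited values are linear intensities, 1 per array row and array, for 1384231 rows. The authors' background correction and normalization are not given in the sources used here; the upper quartiles of 7 arrays lay between 54.9 and 55.1. Rows with 1 gene symbol in the platform annotation (354600) were used, and 14898 with several symbols and 1014733 unlisted rows were left out. Values were taken to log2, rows at or below the median row mean were left out, and rows were summarised per gene by their median.

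limma (version 3.58.1, R version 4.3.3) fitted the 4 group means to 7 arrays, with an intensity trend, for 6 comparisons; p-values are two-sided, with Benjamini-Hochberg adjustment over 18732 genes, and called below 0.05. With 2 arrays against 2 the smallest exact p is 0.333. The number of arrays limits the precision. The GF numbers were not used as pairs, since there are only 2 and their meaning is unstated. Deviations from group means correlated positively, at 0.30, 0.30 and 0.36, between the 3 groups with both arrays. A shift that goes with the GF number was thus left in the fit. The siLacZ RA group holds the GF120 array alone, so that such a shift does not cancel in comparisons with that group. Alternatives changed the arrays, row filter, row summary, offset, normalization, trend and block. Centring rows before the median, alone and with the block, was chosen after seeing the data.

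The members, gene lists and rules were chosen with earlier results of these data known. By rule every member is named with its level, and in each comparison those called and the 3 highest and 3 lowest differences. AURKB and PLK1 with RA in siRNF20 cells, PLK1 and PRC1 with siRNF20, and genes singled out within pairs were added after their values were seen. Sequences are from RefSeq (GRCh38.p14); plots used matplotlib 3.10.9 (Python 3.11.15).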

Additional observations from a re-analysis of the deposited data

How the results depend on the processing

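Precision is set by 7 arrays, with 1 in the siLacZ RA group, and every result on that group rests on the GF120 array. With all 8 arrays 0 mitotic genes were called with RA in siLacZ cells, and the medians over the mitotic genes were 1.64 with siRNF20 in RA, 0.80 averaged, -1.92 with RA in siLacZ cells and 1.84 for the difference of responses. In that setting the sign turned with siRNF20 in RA for CDC25C (0.85), UBE2C (0.59) and PTTG1 (0.27), averaged for CENPE (0.46), SPC25 (0.52) and PLK1 (0.49), with RA in siLacZ cells for UBE2C (-1.26) and CDC25C (-1.09), and for the difference of responses for AURKA (2.28), UBE2C (1.00) and PTTG1 (0.10). There the array that stood apart was added, and the row filter was taken anew over all 8 arrays.

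Leaving out 1 array in turn, with the GF117 array in place of the GF120 one where siLacZ RA had to be kept, the counts called ran between 0 and 39 in RA, in siLacZ with RA and for the difference of responses, between 0 and 38 averaged, and were 0 in DMSO and for RA in siRNF20 cells; counts over 2 come from the array that stood apart. The medians ran between -0.28 and 0.01 in DMSO, -0.34 and 3.45 in RA, -0.21 and 1.60 averaged, -0.29 and 0.18 for RA in siRNF20, -3.76 and -0.03 for RA in siLacZ, and -0.24 and 3.54 for the difference of responses. With the GF117 array in that place the sign turned with siRNF20 in RA for CDC25C (2.21), UBE2C (1.44) and PTTG1 (1.37), averaged for CENPE (1.31), CDC25B (0.24), SPC25 (1.54) and PLK1 (1.26), with RA in siLacZ for PTTG1 (-0.77), UBE2C (-1.78) and CDC25C (-2.45), and in the difference of responses for AURKA (4.96), UBE2C (1.66) and PTTG1 (1.20). Without 1 other array in turn, the sign turned with siRNF20 in DMSO for PTTG1, between -0.090 (without the GF117 siLacZ DMSO array) and 0.433, and AURKA, between -0.063 (without the GF117 siRNF20 DMSO array) and 0.355. With RA in siRNF20 cells it turned for CKS2, between -0.898 and 0.167 (0.000 without the GF117 DMSO array), and SPC25, between -1.215 and 0.412, both highest without the GF120 RA array, and for NEK2, between -0.050 and 0.491, and KIF20A, between -0.105 and 0.543, both lowest without the GF117 RA array.

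With RA in siLacZ cells 0 mitotic genes were called with only rows above the upper quartile and with no intensity trend, and 2, PTTG1 and CKS2, with only the groups of the comparison. With the replicate block (GF number as a term) 2 were called there, CKS2 at -1.18 (adjusted p = 0.0023) and PTTG1 at 1.40 (adjusted p = 0.0025), and the block changed no other count of mitotic genes called. Over all genes it called 232 with siRNF20 in RA (against 2 without it), 225 averaged (1), 1959 with RA in siRNF20 cells (734), 1792 with RA in siLacZ cells (733), 1 with siRNF20 in DMSO (0) and 4 for the difference of responses (0). Under it 33 of 39 mitotic genes were below 0 with siRNF20 in RA and 35 averaged. The medians over all genes were -0.04 and -0.02 there, and shares of all genes below 0 were not counted. With 2 numbers of unstated meaning the block is not taken as a pairing. The count for RA in siRNF20 cells was 1, AURKB, as a mean over rows and with rows centred. With rows centred and the replicate block together, chosen after seeing the data, it was 3 (AURKB, PLK1 and KIF2C, all lower), 1 with siRNF20 in RA (CKS2, higher), 1 averaged (PLK1, lower) and 2 with RA in siLacZ cells. The sign turned as a mean over rows for PTTG1 (-0.27) and MAD2L1 (-0.017) with siRNF20 in DMSO, NEK2 (-0.03) with siRNF20 in RA and UBE2C (-0.013) with RA in siLacZ; above the upper quartile for NEK2 (-0.23) and UBE2C (-0.10); with rows centred for PTTG1 (-0.30), MAD2L1 (-0.015), NEK2 (-0.14) and UBE2C (-0.004), and with the block added for PTTG1 (-0.30), MAD2L1 (-0.015) and NEK2 (-0.31). Where no cause is given it was not tested.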

Other observations

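Rows that name several genes were left out for 6 mitotic genes: AURKA, KIF4A and PTTG1, and 1 row each of BUB1B, MAD2L1 and SPC25, which also name other genes. The 9 rows of AURKA with AURKAPS1 had a median log2 intensity of 9.34 and 9.09 in siRNF20 RA arrays, against 9.43 in the siLacZ RA array, and of 9.50 and 9.27 in siRNF20 DMSO arrays, against 9.58 and 9.42 in siLacZ DMSO arrays. The 28 rows of KIF4A with KIF4B had 9.01 and 8.51 in siRNF20 RA arrays, against 8.42 in the siLacZ RA array, and 8.76 and 8.47 in siRNF20 DMSO arrays, against 8.75 and 8.55 in siLacZ DMSO arrays. In both sets the GF117 array was the higher of its pair in each group that has both.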
